A study of Mus musculus with 4 samples.

Results

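B lineage transcription factors are the nuclear proteins that set up and hold the identity of B cells. The 10 genes described here are Pax5, Ebf1, Spib, Pou2af1, Pou2f2, Bach2, Bcl6, Ikzf1, Ikzf3 and Foxo1, chosen by gene name: every non-control array probe that carries one of these names in the scanner files was taken, which gave 15 of the 39429 probes on the array. All 10 genes were among the 20499 tested. RNA was measured on Agilent 1-colour (Cy3) arrays in cultures of splenocytes, taken from female C57BL/6 mice aged 8 weeks, after 72 h. The medium of all cultures contained IL-4 and LPS, a B cell stimulus under which class switching begins. The imatinib group, 2 arrays, also held 10 µM imatinib, a drug that blocks tyrosine kinases of the ABL, KIT and PDGF receptor type, and the control group, 2 arrays, held none. Whether replicate samples were separate mice or cultures is not given in the labels, so the p-values below measure only the spread between these samples, which may be technical.

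Ebf1 and Pax5 commit lymphoid progenitors to the B lineage and keep mature B cells in it. Pou2f2 (Oct-2) and its coactivator Pou2af1 (OBF-1) act at the octamer element of immunoglobulin promoters, and Spib is an Ets factor related to PU.1. Bcl6 and Bach2 are repressors that hold activated B cells back from becoming plasma cells, and Ikzf1 (Ikaros), Ikzf3 (Aiolos) and Foxo1 act in B cells at rest and after activation. Bach2, Bcl6, Ikzf1, Ikzf3 and Foxo1 are also used by T cells.

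The factors split. With imatinib, Bcl6, Pou2f2, Pax5 and Ebf1 were lower, and Bach2, Foxo1 and Pou2af1 were higher, whereas Spib, Ikzf1 and Ikzf3 did not pass the test. With the brightest probe of each gene, 7 of the 10 genes passed an adjusted p of 0.05 (limma, Benjamini-Hochberg over all 25375 tested probes), against 41.1% of the 20499 genes tested. Higher were 3 of the 10, against 19.4% of all genes, and lower were 4 of the 10, against 21.7%. Over all 15 member probes, each of which is 1 spot and was well above background on all 4 arrays, 11 passed, against 41.9% of all tested probes, 5 of them higher (19.3% of all) and 6 lower (22.5% of all). Imatinib and control values were apart without overlap on 14 of the 15 probes, as they were on 73.7% of all tested probes. The median log2 difference over the 10 genes was -0.20, and over all genes tested it was 0.01.

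Levels below are log2 signals minus the 75th percentile of their array, so levels can be compared between arrays for 1 probe but not between probes. The zero of this scale is a choice. Relative to it, the median difference of all probes shifted by -0.22 when arrays were centred on their median and by -0.28 when they were scaled on the spike-in spots. Rises smaller than this therefore have no settled direction. Falls became larger under both, though the fall nearest 0 among the members, on the brighter Ikzf1 probe, changed sign under quantile normalization. With 2 arrays a group the smallest two-sided p of an exact permutation test is 0.333, so the test leans on the spread shared over all probes, and SE and adjusted p below come from that limma fit.

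**Figure D1:**
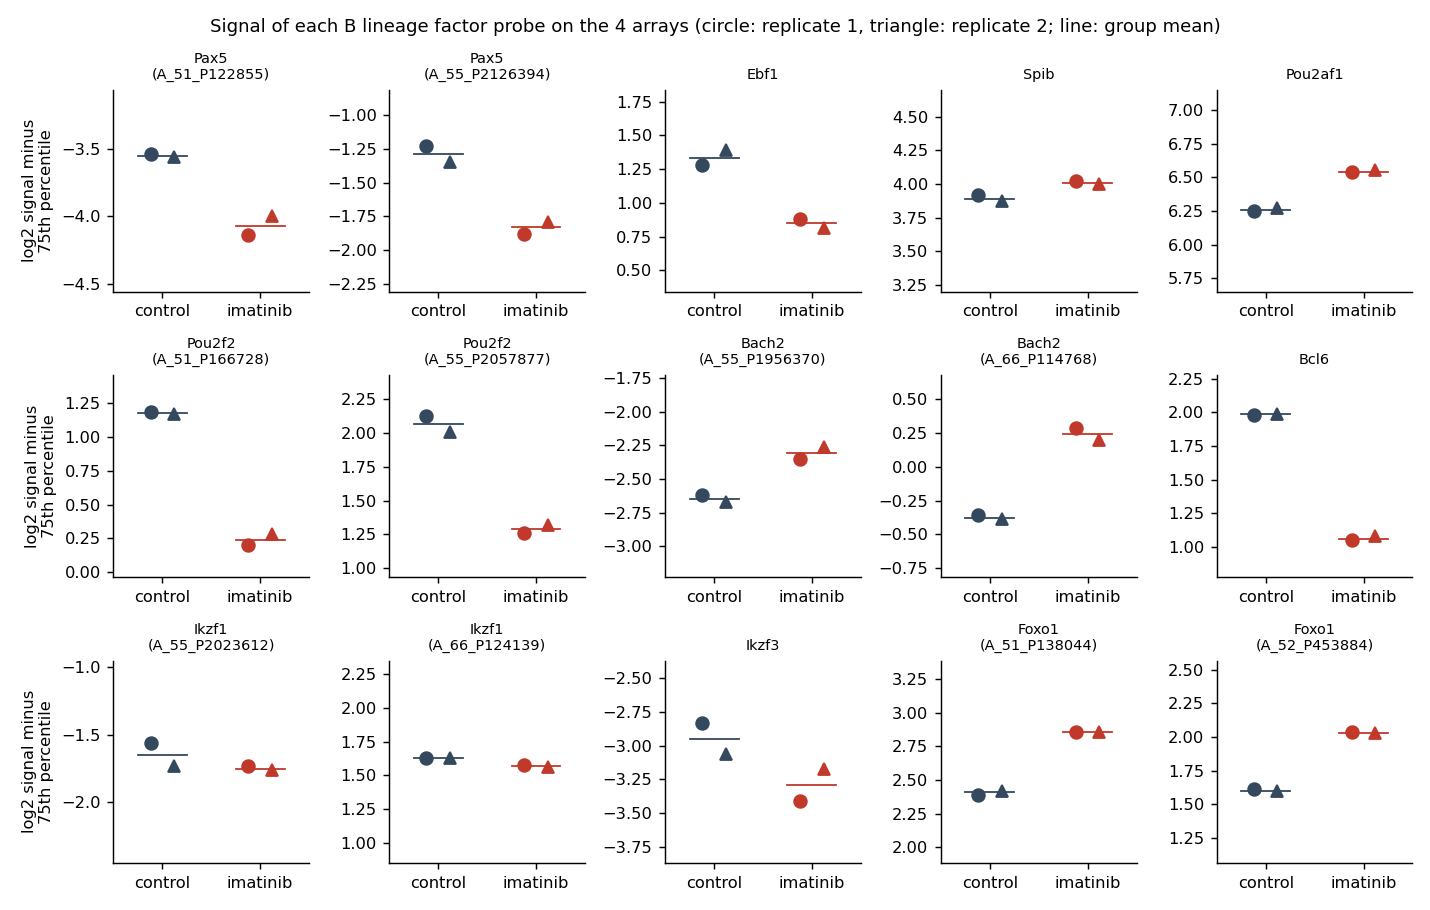
Log2 signal minus the 75th percentile of the array (y axis, same span of 1.5 in each panel) for the 15 probes of the 10 factors, with control arrays in blue-grey and imatinib arrays in red. The lines are group means; only the Ikzf1 probe A_55_P2023612 has overlapping groups, and the direction for Spib, Pou2af1 and the brighter Ikzf1 probe depends on the scaling.

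Pou2f2, which encodes the octamer-binding factor Oct-2, was about halved on both of its probes. The probes cite different transcripts and are shown because both fell, by unequal amounts, the first about as much as Bcl6; capitals mark the longest run without G in the second, a stretch of low complexity.
Pou2f2 A_51_P166728: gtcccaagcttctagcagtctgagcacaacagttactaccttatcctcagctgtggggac
Pou2f2 A_55_P2057877: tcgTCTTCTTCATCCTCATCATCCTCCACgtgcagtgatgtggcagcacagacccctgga
Neither holds a perfect repeat of a 2-base or 3-base unit over 12 or more bases, nor does any other member probe. On A_51_P166728 the imatinib arrays gave 0.20 and 0.28 and the control arrays 1.19 and 1.17. Both imatinib arrays were low by far more than the gap within a group, and the difference was -0.94 (SE 0.062, adjusted p = 0.0023, 95% interval -1.11 to -0.77), a 1.92-fold fall. On A_55_P2057877 the values were 1.26 and 1.32 with imatinib and 2.13 and 2.01 without. Here too the groups stood apart, with a difference of -0.78 (SE 0.074, adjusted p = 0.0049), or 1.72-fold. Of all tested probes, 1.71% and 2.98% had a difference this low or lower. Both calls held under each of the 14 alternative ways of processing, with differences from -1.22 to -0.70.

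Pou2af1, the coactivator that binds Oct-2 and Oct-1 on the octamer, did not follow Pou2f2. It gave 6.54 and 6.55 with imatinib and 6.25 and 6.27 without. The 2 groups were apart and tight, and the difference of 0.28 (SE 0.057, adjusted p = 0.024) passed. The size is within the range that the scaling decides. It was 0.06 under median centring (adjusted p = 0.59) and -0.0018 under spike-in scaling (adjusted p = 0.99), and before any scaling the processed signals overlapped, at 65000 and 63400 with imatinib and 56400 and 66000 without. The call was also lost under quantile normalization (adjusted p = 0.057), on leaving out imatinib 1 (0.13), imatinib 2 (0.15), control 1 or control 2 (0.065 for either control), with the replicate number as a block (0.075) and without the filter on dim probes (0.097). The adjusted p spanned 0.0022 to 0.99 across the alternatives. Pou2f1, which encodes Oct-1, differed by 0.13 (SE 0.080, adjusted p = 0.26).

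Spib gave 4.02 and 4.0 with imatinib and 3.92 and 3.87 without. The difference of 0.12 (SE 0.060, adjusted p = 0.20, 95% interval -0.05 to 0.28) did not pass, and its sign changed with median centring (-0.10) and spike-in scaling (-0.17). Its Ets relatives were measured beside it: Spi1, which encodes PU.1, fell by 0.66 (SE 0.11, adjusted p = 0.015), and Spic, an Ets gene of red pulp macrophages, rose by 1.82 (SE 0.17, adjusted p = 0.0048). Known targets of Oct-2 and its coactivator went both ways. Of 4 measured, Cd36, a scavenger receptor, fell by 1.02 and Il5ra, a chain of the IL-5 receptor, rose by 0.89, while Crisp3 (0.20) and Spib itself did not pass; the median was 0.16 and turned to -0.12 under spike-in scaling.

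Bcl6, a repressor that the germinal centre programme requires, was the other factor that was about halved. Its 1 probe gave 1.05 and 1.08 with imatinib and 1.98 and 1.99 without. The arrays of each group lay within 0.03 of each other in the printed values, and the difference was -0.93 (SE 0.057, adjusted p = 0.002, 95% interval -1.08 to -0.77), a 1.90-fold fall. It was as large within each replicate number, at -0.93 and -0.92. Only 1.80% of tested probes had a difference this low or lower, and the call held under each of the 14 alternatives, with differences from -1.21 to -0.86.

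BCL6 binds elements that resemble STAT sites and can bind its own gene, so the windows before the Bcl6 start sites in RefSeq (GRCm38.p6) were searched for TTCNNNGAA, which reads the same on both strands. The first window, chr16:23988853-23989102 on the minus strand, and the second, chr16:23981284-23981533 on the minus strand, are the 250 bases before each start, with matches in capitals.
Bcl6 first start: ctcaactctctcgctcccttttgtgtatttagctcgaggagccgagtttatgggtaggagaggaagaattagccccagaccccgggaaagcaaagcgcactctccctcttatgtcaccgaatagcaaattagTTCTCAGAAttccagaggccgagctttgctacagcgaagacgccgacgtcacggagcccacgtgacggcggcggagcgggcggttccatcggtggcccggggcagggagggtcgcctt
Bcl6 second start: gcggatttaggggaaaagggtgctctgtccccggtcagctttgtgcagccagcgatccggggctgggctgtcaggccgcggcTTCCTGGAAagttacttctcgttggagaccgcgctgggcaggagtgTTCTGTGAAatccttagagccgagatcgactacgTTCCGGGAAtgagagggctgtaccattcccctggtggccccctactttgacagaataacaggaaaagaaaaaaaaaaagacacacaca
The first holds 1 match and the second 3. Of all 32851 windows in the table, 7.02% hold at least 1 match and 9 windows hold 3 or more. Among the 12 windows of the 9 factors in the table (Ikzf3 was not matched), the third with a match was that of Bach2. The octamer ATGCAAAT, searched on both strands, was in none of the 12 and in 1.60% of all windows, and the E-box CANNTG, the element bound by E2A and its relatives, was in 7 of the 12 and in 66.2% of all. These are matches of letters, not measured binding.

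Bach2, the other repressor, went the opposite way. It competes with activators of the NRF2 type at Maf recognition elements and represses Prdm1, the gene of the plasma cell regulator Blimp-1. Its probe A_66_P114768 gave 0.29 and 0.20 with imatinib and -0.36 and -0.39 without. The imatinib arrays were both higher, by 0.62 (SE 0.067, adjusted p = 0.0063, 95% interval 0.44 to 0.80), or 1.54-fold, and the call held under each of the 14 alternatives, with differences from 0.34 to 0.67. The second probe, A_55_P1956370, cites another transcript and was dimmer. It gave -2.35 and -2.26 with imatinib and -2.62 and -2.67 without, a difference of 0.34 (SE 0.066, adjusted p = 0.022). The direction was the same on both probes, but this second call was lost in 8 of the 14 alternatives: median centring (0.13, adjusted p = 0.26), spike-in scaling (0.06, adjusted p = 0.57), no filter (adjusted p = 0.085), the replicate block (0.066), and without imatinib 1 (0.084), imatinib 2 (0.13), control 1 (0.054) or control 2 (0.074), in a range of adjusted p from 0.0062 to 0.57.

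Genes known to be repressed by these 2 factors were counted next. Of 14 measured genes of the Bcl6 list, 7 rose and 4 fell, with a median of 0.19 that went to -0.09 under spike-in scaling. Of all genes tested, 19.4% passed as higher and 21.7% as lower. The largest rises were those of the chemokine gene Ccl3 (2.85), S1pr1, a receptor for lymphocyte exit (2.18), and Id2, an inhibitor of E proteins (2.15), and among those that fell was Cd69, an early activation marker, at -0.60. The number called was 5 without imatinib 1 and without imatinib 2, 7 without control 1 and 6 without control 2. Of the 2 genes of the Bach2 list, Hmox1, heme oxygenase, rose by 2.39 (SE 0.063, adjusted p = 0.00071), and Bach2 was higher too. T cell and macrophage markers, given below, rose in the same arrays. Neither the part of macrophages nor that of Bach2 in the Hmox1 difference was tested. The part of T cells and macrophages in the counts of the Bcl6 list was not tested either. Prdm1, which is on the Pax5, Bcl6 and Bach2 lists, differed by 0.26 (SE 0.059, adjusted p = 0.033). That call was lost without any 1 of the 4 arrays (adjusted p 0.083 to 0.19), with the replicate block (0.093), without the filter (0.12) and under median centring (0.76). Spike-in scaling turned the difference to -0.027 (adjusted p = 0.83), and the adjusted p spanned 0.0017 to 0.83 in all. Bach1, the relative of Bach2 found in most tissues, rose by 0.96 (SE 0.070, adjusted p = 0.0028), and Bcl6b, the relative of Bcl6, rose by 2.76 (SE 0.065, adjusted p = 0.00069), opposite to Bcl6. With normexp background correction the Hmox1 and Bcl6b differences were 2.31 and 1.92.

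Pax5 and Ebf1, the pair that activates much of the B cell programme, fell together by about 0.5. The Pax5 probes are shown because they report the same difference at very different brightness.
Pax5 A_51_P122855: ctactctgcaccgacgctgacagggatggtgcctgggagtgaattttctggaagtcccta
Pax5 A_55_P2126394: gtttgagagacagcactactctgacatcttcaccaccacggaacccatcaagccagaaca
On A_55_P2126394 Pax5 gave -1.88 and -1.79 with imatinib and -1.23 and -1.35 without, with processed signals of 190 and 197 against 314 and 335. The imatinib arrays were both lower, by 0.54 (SE 0.077, adjusted p = 0.011), or 1.45-fold. On A_51_P122855, whose processed signals were only 39.7 and 42.3 with imatinib and 63.4 and 72.2 without, the values were -4.14 and -4.0 against -3.54 and -3.56. The groups were apart again and the difference was -0.52 (SE 0.074, adjusted p = 0.011). With normexp, whose offset shrinks differences of dim spots, the dim probe differed by -0.17 (adjusted p = 0.054) and the other by -0.40.

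Ebf1 gave 0.88 and 0.81 with imatinib and 1.28 and 1.39 without. Both imatinib arrays were lower, and the difference was -0.49 (SE 0.073, adjusted p = 0.012, 95% interval -0.69 to -0.29), or 1.40-fold. Neither scaling turned these falls, which were larger under median centring and spike-in scaling, at -0.82 for Pax5 on A_55_P2126394 and -0.77 for Ebf1 under the latter. Some of the calls were lost on leaving out an imatinib array or the filter. Without imatinib 1 the adjusted p was 0.067 for Pax5 on A_55_P2126394, 0.065 on A_51_P122855 and 0.059 for Ebf1; without imatinib 2 it was 0.053 for A_55_P2126394 and 0.076 for Ebf1, while A_51_P122855 passed (0.044); and without the filter on dim probes it was 0.051, 0.052 and 0.055. Without control 1 or control 2 the calls of both Pax5 probes and Ebf1 held (adjusted p 0.029 to 0.045). Over all alternatives it ran from 0.00015 to 0.067, from 0.0013 to 0.065 and from 3.2e-05 to 0.076.

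Known targets of the pair did not move as a block. Of 13 measured genes that Pax5 or Ebf1 activate, 4 rose and 4 fell, with a median of -0.01 (-0.29 under spike-in scaling). Over all genes tested the shares were 19.4% higher and 21.7% lower. Among the rises, Cplx2 (0.29) was read on a probe with a repeat of 42 bases, so that rise may not report Cplx2. Id3, an inhibitor of E proteins, fell by 1.04 (SE 0.082, adjusted p = 0.0034). Cd79a, Cd79b, Blnk and Vpreb3 differed by -0.06, -0.01, 0.01 and 0.01. Bst1, an ectoenzyme, differed by 1.93 (0.69 with normexp) and Cr2, complement receptor 2, by 0.54. Without imatinib 1 or without imatinib 2 the list had 1 called gene, Bst1 then had an adjusted p of 0.056 and 0.057, and Cr2 0.070 and 0.051. Without the filter Bst1 (0.053) and Cr2 (0.055) did not pass, nor did Cr2 under spike-in scaling (0.26, adjusted p = 0.078). Of 8 measured genes that Pax5 represses, 5 rose and 2 fell, with a median of 0.42 (0.14 under spike-in scaling). Among these rises, Notch1 (1.17) was read on a probe with a repeat of 12 bases. Cd28, a T cell costimulatory receptor, rose by 2.84 with Ccl3, and Flt3, a receptor kinase of progenitors and dendritic cells, fell by 1.41. The T cell and macrophage markers given below rose in the same arrays, and their part in these list counts was not tested.

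Foxo1 rose. It is a forkhead factor that PI3K and AKT signalling send out of the nucleus, and it drives genes of lymphocyte homing and quiescence. The probe A_51_P138044, which has an open reading frame along its length, is printed because it gave the same difference as the second probe, A_52_P453884.
Foxo1 A_51_P138044: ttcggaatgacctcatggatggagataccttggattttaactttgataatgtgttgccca
It gave 2.86 on both arrays with imatinib and 2.39 and 2.42 without. The groups were apart, with a difference of 0.45 (SE 0.057, adjusted p = 0.0087, 95% interval 0.29 to 0.61), or 1.37-fold. The second probe gave 2.04 and 2.03 against 1.61 and 1.60, a difference of 0.43 (SE 0.056, adjusted p = 0.0092). The direction was positive under each alternative for both probes, from 0.15 to 0.54. The calls were lost under median centring (0.23 and 0.21, adjusted p = 0.086 and 0.10) and spike-in scaling (0.17 and 0.15, adjusted p = 0.17 and 0.22), and on leaving out imatinib 1 (adjusted p = 0.065 and 0.070) or imatinib 2 (0.066 and 0.068), in ranges of 1.6e-05 to 0.17 and 2.5e-05 to 0.22.

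Of 14 measured genes known to be activated by Foxo1, 9 rose and 1 fell, against 19.4% and 21.7% of all genes tested. The median was 0.64 and stayed above 0 under median centring and spike-in scaling (0.35 under the latter). Il7r, a chain of the IL-7 receptor, rose by 2.21 (1.20 with normexp), S1pr1 by 2.18 and the homing receptor Ccr7 by 1.36. Klf2, a factor of lymphocyte quiescence, rose by 1.34 and Irs2, an insulin signalling adaptor, by 1.31. Txnip, the thioredoxin-binding protein, was the 1 that fell, by 0.93. T cells express several of these genes, Il7r, S1pr1, Ccr7 and Klf2 among them, and 12 of 14 T cell markers rose in the same arrays. The part of T cells in this list was not tested. Rag1 and Rag2, the recombinase genes of early B cells, were not tested because neither passed the filter on dim probes. Among the relatives, Foxo3 differed by 0.52 (SE 0.26) and did not pass.

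The Ikaros family members of the list did not pass. The Ikzf1 probe A_55_P2023612 is printed because its groups were the only ones that overlapped.
Ikzf1 A_55_P2023612: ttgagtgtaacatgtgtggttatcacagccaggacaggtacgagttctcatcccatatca
It gave -1.73 and -1.76 with imatinib and -1.56 and -1.73 without, a difference of -0.10 (SE 0.082, adjusted p = 0.39, 95% interval -0.33 to 0.13). The brighter Ikzf1 probe, A_66_P124139, gave 1.58 and 1.56 against 1.63 and 1.63. Its difference was -0.06 (SE 0.057, adjusted p = 0.43, 95% interval -0.22 to 0.10). On this scale the interval does not reach the differences of Bcl6 or Pou2f2, but it covers only the spread between these samples. The difference has no settled direction. It was 0.0079 under quantile normalization and -0.34 under spike-in scaling, where it passed (adjusted p = 0.023), and the dimmer probe passed under median centring (-0.32, adjusted p = 0.034) and spike-in scaling (-0.38, adjusted p = 0.017). A further probe that the files describe as Ikaros but do not name Ikzf1 lies outside the rule; it gave 2.34 and 2.19 with imatinib and 2.13 and 1.91 without and did not pass (difference 0.25, SE 0.11, adjusted p = 0.15).

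Ikzf3, which encodes Aiolos, gave -3.41 and -3.17 with imatinib and -2.83 and -3.06 without. Its processed signals, 65.8 and 75.2 against 104 and 102, were among the lowest of the factors, and its arrays spread the most. The imatinib arrays were both lower, but the difference of -0.34 (SE 0.13, adjusted p = 0.11, 95% interval -0.70 to 0.01) did not pass. It was -0.58 between the arrays of replicate number 1 and -0.11 between those of number 2. It passed under quantile normalization (-0.50, adjusted p = 0.024), median centring (-0.56, 0.0075), spike-in scaling (-0.62, 0.0042) and the variance model with trend (-0.34, 0.047), in a range of adjusted p from 0.0042 to 0.33. Ikzf4, which encodes Eos and is known from T cells, rose by 1.74 (SE 0.15, adjusted p = 0.0038). Of the 3 measured genes on the list of Ikaros and Aiolos targets, the surrogate light chain gene Vpreb1 differed by 0.66 and Myc, a growth factor response gene, by -0.59, while Dntt did not pass; the median was 0.25 and turned to -0.04 under spike-in scaling. Both calls were lost without imatinib 2 (adjusted p = 0.074 and 0.071); Myc also failed without imatinib 1 (0.061), and Vpreb1 without control 1 (0.058), without control 2 (0.095) and with the replicate block (0.062). Without the filter on dim probes neither passed (Vpreb1 0.083, Myc 0.055).

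**Figure D2:**
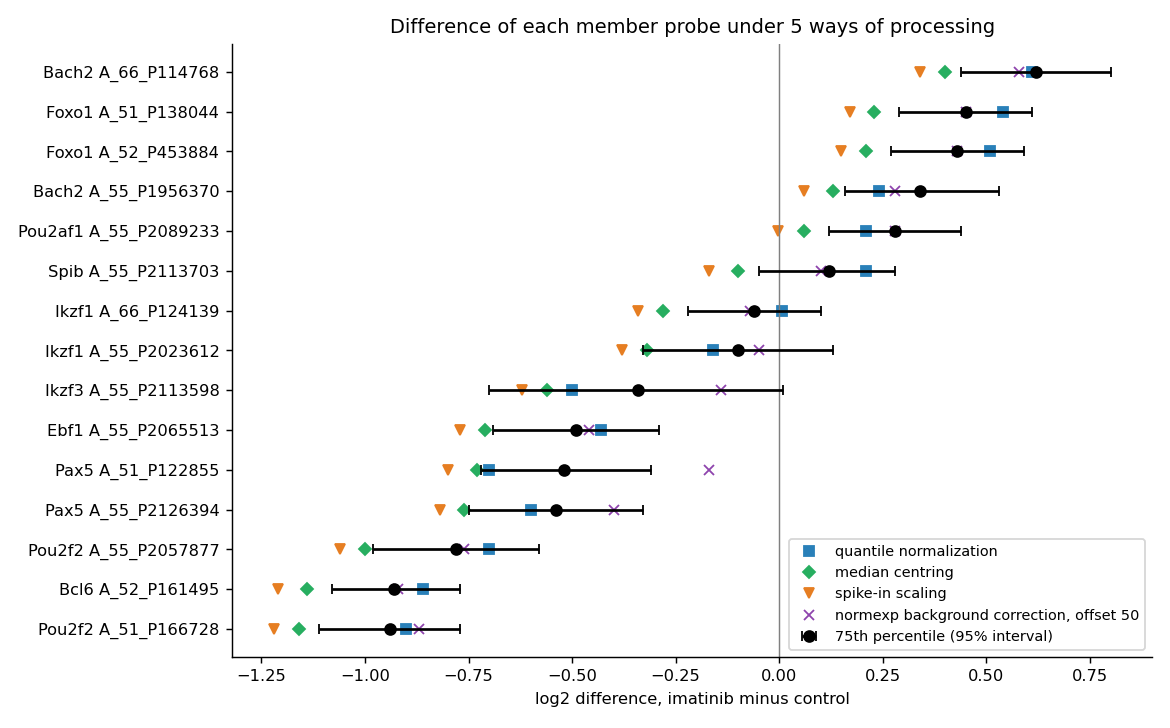
Log2 difference, imatinib minus control (x axis), of the 15 probes (y axis) with its 95% interval (black), and the same difference under 3 other scalings and 1 other background correction. Bcl6 and Pou2f2 lie between -1.22 and -0.70 at every setting shown, Bach2 and Foxo1 stay above 0, and Spib, Pou2af1 and the brighter Ikzf1 probe cross 0 with the scaling.

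The relatives and partners of the factors were counted as lists as well. Of 12 measured relatives, 6 rose and 1 fell, with a median of 0.43 (0.14 under spike-in scaling), the rises including Bcl6b, Spic (0.95 with normexp) and Ikzf4. Another of the 6, Ikzf2, was not well above background on either control array and was tested only through the imatinib arrays, so its rise has no measured control level. Of 15 co-factors, 3 rose and 1 fell, with a median of -0.03 that turned to -0.31 under spike-in scaling, where 9 passed in all. The rises were Maff (1.75, or 1.07 with normexp) and Mafg (0.50), small Maf proteins that pair with Bach2, and Tle4 (0.91), a Groucho corepressor used by Pax5. Mafg did not pass without imatinib 1 (adjusted p = 0.068) or without imatinib 2 (0.062), when the co-factors had 2 called genes, nor under spike-in scaling (0.21, adjusted p = 0.095). The corepressor genes Bcor, Hdac3 and Sin3a had differences of 0.05, 0.00 and -0.03, none of which passed. The share of all genes that passed was 41.1%.

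**Figure D3:**
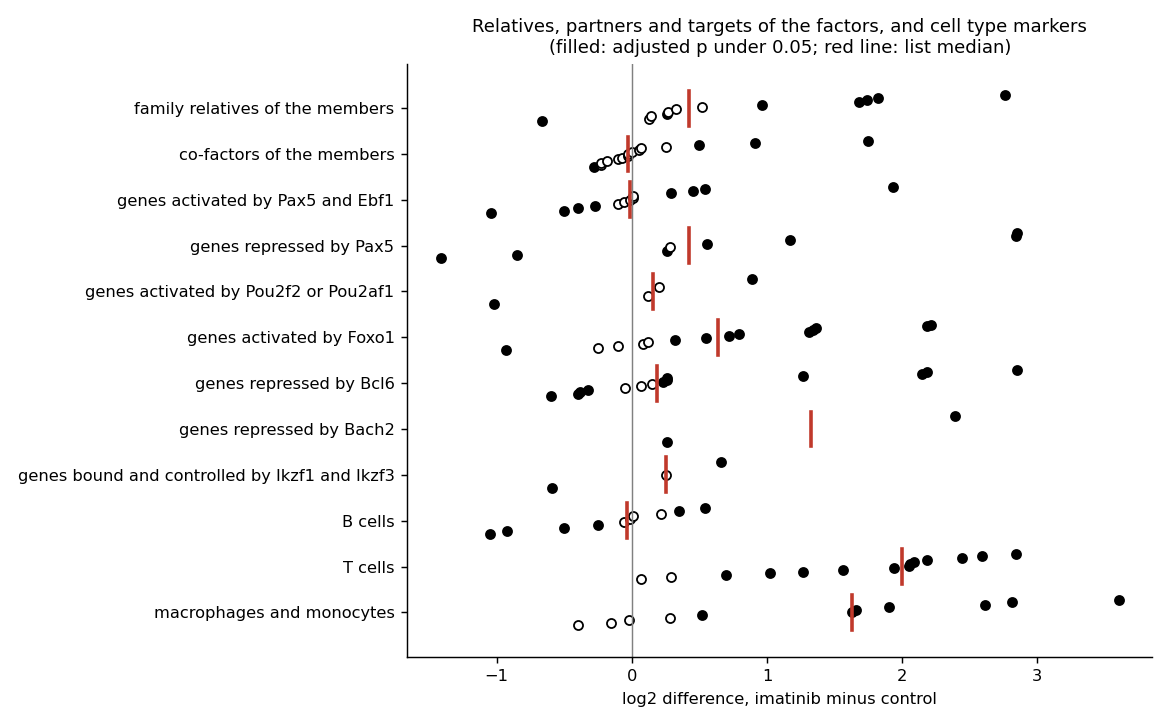
Log2 difference, imatinib minus control (x axis), of each measured gene of 9 lists of relatives, co-factors and targets and of 3 lists of cell type markers (y axis). Filled points passed an adjusted p of 0.05 and red lines are medians; T cell markers lie highest as a list, at a median of 1.99, and B cell markers are centred near 0, at -0.03.

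The cells measured were a mixture, and for every value above a smaller number of cells of a type and less RNA per cell cannot be told apart. B cell markers were present on all arrays. Of 10 measured, 2 rose and 4 fell. Over all genes tested 19.4% rose and 21.7% fell, the shares to set beside each marker list below. The log2 of the summed signals of the B cell markers, called the summed level below, was 8.48 and 8.50 with imatinib and 8.55 and 8.65 without. This sum and those below add signals of probes of unlike brightness, so the brightest probes decide them. In the B cell sum these are Cd79b and Blnk, which did not pass. Cd22, an inhibitory coreceptor, fell by 1.05 and Fcer2a, CD23, by 0.92, and Ms4a1, CD20, differed by -0.25 (adjusted p = 0.031, and 0.073 to 0.18 without any 1 array). Bcl6 and Pou2f2 differed by about as much as Cd22 and Fcer2a, and no test of these pairs was run. Cd22 and Fcer2a were the largest falls of the B cell list, whose median was -0.03. The 2 markers of that list that rose were Cr2 (0.54) and Fcrla (0.35). T cell markers were higher, 12 of 14, with a median of 1.99 and a summed level of 5.26 and 5.29 against 4.30 and 4.34; Cd3e rose by 1.27, Bcl11b by 2.59, and Cd4 differed by 0.07 and did not pass. Of 11 measured macrophage and monocyte markers 7 rose, with a median of 1.63 and a summed level of 2.50 and 2.57 against 1.80 and 1.83. Adgre1, F4/80, rose by 3.60 and Lyz2, lysozyme, by 2.81 (1.40 with normexp), Csf1r differed by 0.28 and did not pass, and 3 further markers of this list were not well above background on any array. Among those that rose, Msr1 was not well above background on either control array. Of 4 measured mast cell and basophil markers 4 rose, with a summed level of -2.04 and -1.97 against -3.52 and -3.55, but Cpa3 and Mcpt8 were likewise not well above background in the controls. Of 6 neutrophil markers 4 rose and 1 fell, while their summed level was lower with imatinib, at 1.44 and 1.58 against 1.71 and 1.81. The brightest probe in that sum is that of Ly6g, the 1 that fell, by 0.59. Of 6 plasma cell markers 3 rose and 2 fell, with sums of 7.31 and 7.40 against 7.26 and 7.28. Of 5 dendritic cell markers 2 rose and 1 fell (sums of 6.72 and 6.75 against 6.36 and 6.57), of 4 NK cell markers 2 rose and 1 fell (1.49 and 1.54 against 1.02 and 1.09), and of 3 erythroid and platelet markers 1 rose (-0.55 and -0.42 against -1.16 and -1.10). Itgax, among the dendritic cell rises, was also not well above background in the controls. The dendritic cell sum is nearly all Siglech, which differed by 0.30 and did not pass. The part of these cells in the differences of the factors was not tested.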

How the data were processed

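The authors scanned 4 Agilent arrays of design 026655 with Feature Extraction 9.1.3.1, per the file headers, so the deposited unit is the fluorescence intensity of each spot, with background already subtracted and no scaling across arrays. A deposited table of log2 values was made in GeneSpringGX, per the series' design text; set against the scanner files, each column equalled log2 of the processed signal less a constant within 0.01 for 99.88% to 99.93% of probes, and column medians were -4.17 to -3.92. It served as an alternative.

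From the scanner files, log2 processed signals were averaged per probe without outlier spots, and the 75th percentile over the non-control spots (699 and 678 with imatinib, 739 and 854 without) was subtracted. Of all 39429 probes, 92 with a marked value were left out. The others were tested if well above background on both arrays of a group. The test was run in R 4.3.3 with limma 3.58.1 (lmFit, eBayes, two-sided, group only, 2 residual and 2.05 prior degrees of freedom), with Benjamini-Hochberg adjustment over all tested probes. Intervals are 95% and SE and SD are log2. No spot was saturated. The arrays lay on 1 slide, control at positions 1 and 3 and imatinib at 2 and 4.

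The members and lists were chosen with earlier results of these data known. The text names all members, up to 3 called genes with the largest difference per list, 2 per marker list, and Ms4a1, Cd3e, Cd4 and Csf1r as defining markers; some results that fall under this rule are not reported here. Further genes were named after their values were seen: Pou2f1, Spi1, Bach1, Foxo3, Crisp3, Cd69, Klf2, Irs2, Txnip, Rag1, Rag2, Dntt, Cd79a, Cd79b, Blnk, Vpreb3, Cplx2, Notch1, Bcor, Hdac3, Sin3a, Ikzf2, Msr1, Cpa3, Mcpt8, Ly6g, Siglech, Itgax and Fcrla. Names and promoter windows came from RefSeq tables of GRCm38.p6, where 9 of the 10 members had a window; gene coordinates were not used here. The promoter motifs were chosen after the data were seen.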

Additional observations from a re-analysis of the deposited data

How the results depend on the processing

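14 alternatives were run for each member probe, 210 values in all: 166 kept their direction and side of the threshold, 33 no longer passed, 7 newly passed and 4 changed sign. Pou2f2, Bcl6 and the brighter Bach2 probe kept both in every setting. The sign changes were those of Spib (-0.10 by median centring, -0.17 with spike-in scaling), Pou2af1 (-0.0018 under spike-in scaling) and the brighter Ikzf1 probe (0.0079 under quantile normalization); among other named genes, Cd4 changed to -0.15 and -0.21 (median centring, spike-in scaling) and ranged from -0.07 to 0.21 on leaving out 1 array, and Prdm1 to -0.027 and Csf1r to -0.0066 under spike-in scaling. Factor genes higher numbered 3, and 1 with either median centring or spike-in scaling, which had 5 and 6 lower. Without the filter on dim probes, which tests 39337 probes, 4 factor genes passed, 2 of them lower, with 29 genes of the related lists (49 otherwise) and 4971 of all probes (10622 otherwise). Leaving out 1 array at a time gave 3 to 6 factor genes (1 to 2 higher, 2 to 4 lower), 28 to 41 genes of the lists and 4040 to 8878 probes; the lone array of a group is then assumed to vary like the other group. The number of lower against higher probes was 5717 and 4905, 10003 and 3124 by median centring, and 11755 and 2797 by spike-in scaling. The replicate numbers share no source in the labels, and deviations of arrays with the same number correlated at -0.07; with the number as a block, 7164 probes, 39 genes of the lists and 6 factor genes passed. Taking the array percentile over averaged probes, chosen after seeing the data, gave 10747 probes. The cause of these shifts was not tested. Dim spots limit Pax5 (A_51_P122855) and Ikzf3.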
